A study of Mus musculus with 4 samples.

Results

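The serine, threonine and one-carbon genes described here were 10 genes chosen by name, Phgdh, Psat1, Psph, Shmt1, Shmt2, Mthfd1, Mthfd2, Mthfd1l, Tdh and Gldc. Each name matched 1 of the 56748 genes in the deposited tables, and all 10 genes were among the 18157 genes with enough reads to be tested. RNA-seq libraries came from the mouse ES cell line E14, 2 of them from WT cells (WT1 and WT2). The other 2 came from separate Npac KO lines, KO1 and KO2, with 1 library a line. The KO lines were made with CRISPR/Cas9 and guide RNAs against the third exon of Npac, and were grown from colonies picked after puromycin selection. WT and KO cells shared the same culture, without feeder cells, on gelatin and in GMEM with serum, non-essential amino acids, pyruvate and LIF. No source states that the 2 WT libraries came from separate cultures, and each KO line is 1 library, so p-values measure only the spread between these 4 libraries. Because the RNA is from bulk cells, fewer cells of a type and less RNA per cell cannot be told apart.

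Cells make serine from a glycolytic intermediate in the cytosol through Phgdh, Psat1 and Psph, in that order. Serine hydroxymethyltransferase then splits serine into glycine and a one-carbon unit carried by folate, with Shmt2 in mitochondria and Shmt1 in the cytosol. Mthfd2 and Mthfd1l carry the unit on to formate in mitochondria, and Mthfd1 serves the cytosolic side, where the unit is used for purines, thymidylate and methionine. Mouse ES cells are known for a high level of Tdh, the mitochondrial enzyme that breaks down threonine, and Gldc is the decarboxylase of the glycine cleavage system. The transcription factor Atf4, which is induced when amino acids are short, is a known activator of serine synthesis and mitochondrial folate genes.

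Total counts lay between 15850805 and 16965120 per library. The 10 genes together took 0.225% and 0.229% of the reads in WT1 and WT2, and 0.216% and 0.222% in KO1 and KO2, so their summed share was nearly the same in all 4 libraries while single genes moved in both directions. Single counts of the 10 genes lay between 715 and 8602 reads. The values given below as CPM are counts scaled to a common library size after TMM normalization (mean ± SD, n = 2 in each genotype). Log2 fold changes (KO - WT), their standard errors and adjusted p are those of the quasi-likelihood test in edgeR, with p-values adjusted by Benjamini-Hochberg over all 18157 genes. A gene was called where it passed both thresholds of the study's methods, 0.05 for the adjusted p and 1.5 for the fold change.

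Npac itself, listed as Glyr1 (ENSMUSG00000022536), had 259 CPM in WT1, 178 CPM in WT2, 47.9 CPM in KO1 and 51.3 CPM in KO2. Both KO libraries were thus far below both WT libraries, with 22.7% of the WT mean left (log2 fold change -2.14, standard error 0.23, adjusted p = 0.00174). The count covers the whole gene and does not show which exons the remaining reads came from. The ES cell label was checked against 7 marker genes. Pou5f1, Sox2 and Nanog were read at 448 to 908 CPM in every library, and 1 of the 7 markers, Zfp42, fell in Npac KO cells (adjusted p = 0.000704 from edgeR). DESeq2 called 3 of the 7 markers lower.

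Of the 10 genes, 2 rose and 2 fell in Npac KO cells, against a background of 11.0% of all tested genes called higher and 10.7% called lower. Tdh and Shmt1 rose, and Shmt2 and Psph fell. The other 6 genes were not called. The genotypes did not overlap in 8 genes, 4 with the KO libraries above the WT libraries and 4 with them below, where 33.2% and 32.5% of all tested genes did so. The median log2 fold change was -0.03 over the 10 genes and 0.0015 over all tested genes, so the middle of the list lay close to that of all genes.

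**Figure D1:**
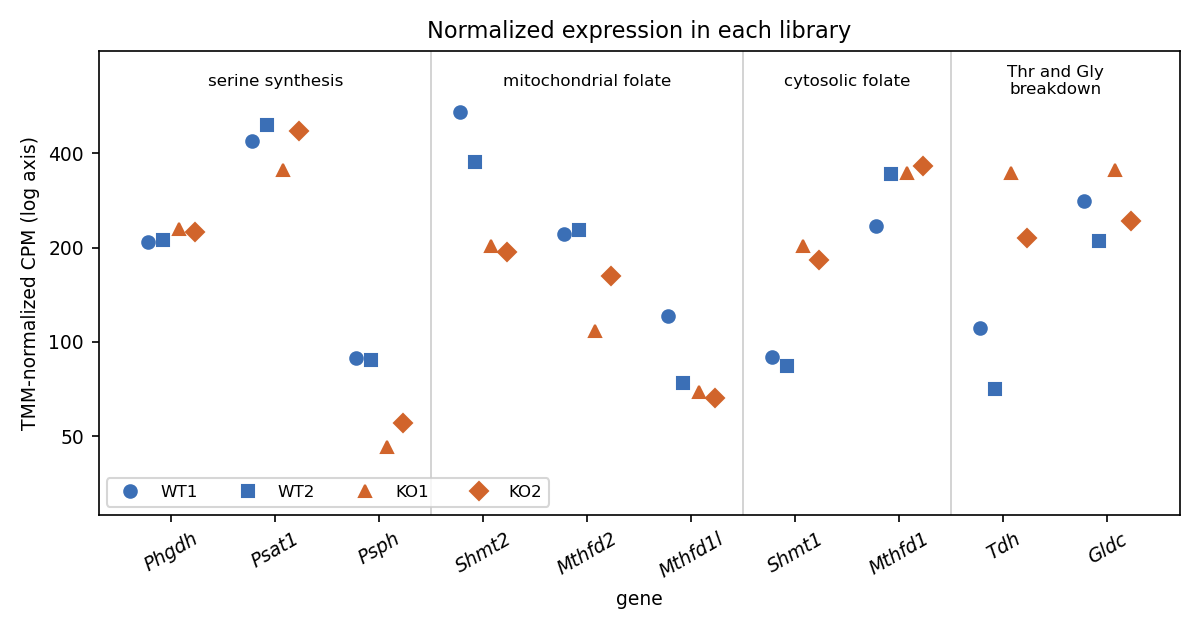
Normalized expression of the 10 genes in each library (TMM-normalized CPM, log axis), with 1 point a library and genes grouped by role. The KO points (triangles and diamonds) of Shmt2 and Psph lie below both WT points, and those of Shmt1 and Tdh lie above them.

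The transcripts of the mitochondrial and the cytosolic serine hydroxymethyltransferase changed in opposite directions. Shmt2 (ENSMUSG00000025403), the mitochondrial enzyme, had 543 CPM in WT1, 374 CPM in WT2, 203 CPM in KO1 and 194 CPM in KO2. The WT libraries differed more from each other than the KO libraries did, but all KO values were below all WT values. Shmt2 fell from 458 ± 120 to 198 ± 5.82 CPM (log2 fold change -1.21, standard error 0.22, adjusted p = 0.0107 from edgeR). Without the KO2 library the call was lost, with a log2 fold change of -1.16 and an adjusted p of 0.0501.

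Shmt1 (ENSMUSG00000020534), the cytosolic enzyme, had 89.2 CPM in WT1, 83.7 CPM in WT2, 202 CPM in KO1 and 182 CPM in KO2. Replicates were close to each other and the genotypes were well apart. Shmt1 rose from 86.5 ± 3.94 to 192 ± 14.4 CPM (log2 fold change 1.15, standard error 0.18, adjusted p = 0.00577 from edgeR), and it was still called when any 1 of the 4 libraries was left out. Shmt1 lies on chromosome 11. Its genes had a median log2 difference from WT cells of 0.51 in KO1 and of 0.48 in KO2 with the median of all genes as 0, and on chromosome 8 these medians were 0.51 and 0.52, while other autosomes lay between -0.20 and 0. With the median of each chromosome removed from the KO libraries, the log2 fold change of Shmt1 was 0.66 (adjusted p = 0.0368 from edgeR), which still passed both thresholds. None of the other 9 genes lies on chromosome 11 or 8. On the opposite strand Shmt1 shares 184 bases with Smcr8, which had 691 to 1548 reads per library, and Shmt2 shares 32 bases with Ndufa4l2, which had 167 to 446 reads; their part in the counts was not tested.

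Per length, the deposited FPKM of Shmt2 was 7.60 times that of Shmt1 in WT1 and 5.58 times in WT2. The ratio was 1.25 in KO1 and 1.33 in KO2. The Shmt2 transcript was thus in large excess over that of Shmt1 in WT cells and close to it in Npac KO cells. The mean log2 ratio was 2.70 ± 0.32 in WT cells and 0.37 ± 0.07 in Npac KO cells (SD, n = 2 each). A ratio within a library does not depend on how the library was scaled, but it keeps the shift of chromosome 11, where Shmt1 lies. With the chromosome medians removed, the log2 fold change was 0.66 for Shmt1 and -1.13 for Shmt2. The ratios are given as a description, without a test.

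The sequences upstream of this pair are shown because the pair moved apart. They are the RefSeq promoter windows of 250 bases before to 50 after the start site in build GRCm38.p6, each on the minus strand, at chr11:60811216-60811515 for Shmt1 and chr10:127522395-127522694 for Shmt2. Capitals mark the CCAAT and GGGCGG motifs on either strand, which are known as the CCAAT box and the GC box.
Shmt1: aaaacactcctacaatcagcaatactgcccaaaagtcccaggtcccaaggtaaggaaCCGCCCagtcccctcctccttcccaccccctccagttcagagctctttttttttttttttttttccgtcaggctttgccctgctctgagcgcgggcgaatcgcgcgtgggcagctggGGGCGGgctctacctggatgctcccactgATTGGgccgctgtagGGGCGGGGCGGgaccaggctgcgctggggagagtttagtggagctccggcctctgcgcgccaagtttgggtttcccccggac
Shmt2: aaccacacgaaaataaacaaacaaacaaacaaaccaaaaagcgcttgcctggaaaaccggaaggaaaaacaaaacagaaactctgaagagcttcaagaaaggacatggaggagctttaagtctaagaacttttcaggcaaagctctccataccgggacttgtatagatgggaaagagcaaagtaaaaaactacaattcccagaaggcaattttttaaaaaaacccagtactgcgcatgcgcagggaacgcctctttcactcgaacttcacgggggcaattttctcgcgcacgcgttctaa
The Shmt1 window held 1 CCAAT match and 4 GGGCGG matches, of which 2 overlap, and the Shmt2 window held neither motif. Of all 32851 promoter windows, 37.4% held a CCAAT match and 35.7% a GGGCGG match, so both matches are common. Among the 9 members with a window, CCAAT was found for 7 genes and GGGCGG for 6 genes. A match is a run of letters and not a bound site.

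The other mitochondrial folate enzymes had lower values in Npac KO cells, but neither was called. Mthfd2 (ENSMUSG00000005667), the mitochondrial methylenetetrahydrofolate dehydrogenase, had 221 CPM in WT1, 227 CPM in WT2, 108 CPM in KO1 and 162 CPM in KO2. The WT values were nearly equal, and the KO lines differed from each other. On the same strand Mthfd2 shares 2799 bases with Gm43890, which had 79, 55, 30 and 48 reads in WT1, WT2, KO1 and KO2. Mthfd2 had 1678 to 3958 reads, and the part of Gm43890 in its count was not tested. The log2 fold change of Mthfd2 was -0.73 (standard error 0.23, adjusted p = 0.0552 from edgeR). The gene passed both thresholds in 3 of 10 other settings, among them DESeq2 (adjusted p = 0.0267) and edgeR without the filter on low counts (0.00873). It did not pass them in edgeR with upper-quartile normalization (0.0648) or chromosome medians removed (0.0812), or under limma-trend on log2(FPKM + 0.1) (0.0943). With each library left out in turn, its log2 fold change lay between -1.04 without KO2 and -0.47 without KO1. Mthfd1l (ENSMUSG00000040675), which makes formate in mitochondria, had 121 CPM in WT1, 74.1 CPM in WT2, 69.4 CPM in KO1 and 66.3 CPM in KO2. Here WT2 lay close to the KO libraries, so the difference rested on WT1. The log2 fold change of Mthfd1l was -0.52 (standard error 0.25, adjusted p = 0.168 from edgeR), and it was -0.15 without WT1 and -0.83 without WT2.

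Mthfd1 (ENSMUSG00000021048), the trifunctional cytosolic folate enzyme, had 234 CPM in WT1, 344 CPM in WT2, 347 CPM in KO1 and 363 CPM in KO2. WT2 again lay next to the KO libraries, and the gene was not called (log2 fold change 0.30, standard error 0.22, adjusted p = 0.373 from edgeR). It was 0.02 without WT1 and 0.60 without WT2. Per length, the FPKM of Mthfd2 was 1.20 times that of Mthfd1 in WT1, 0.839 times in WT2, 0.397 times in KO1 and 0.569 times in KO2. Both KO ratios were below both WT ratios, though neither gene was called. The FPKM of Mthfd1l was 0.515 and 0.216 times that of Mthfd1 in WT1 and WT2, and 0.2 and 0.183 times in KO1 and KO2. For that pair WT2 lay close to the KO libraries.

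**Figure D2:**
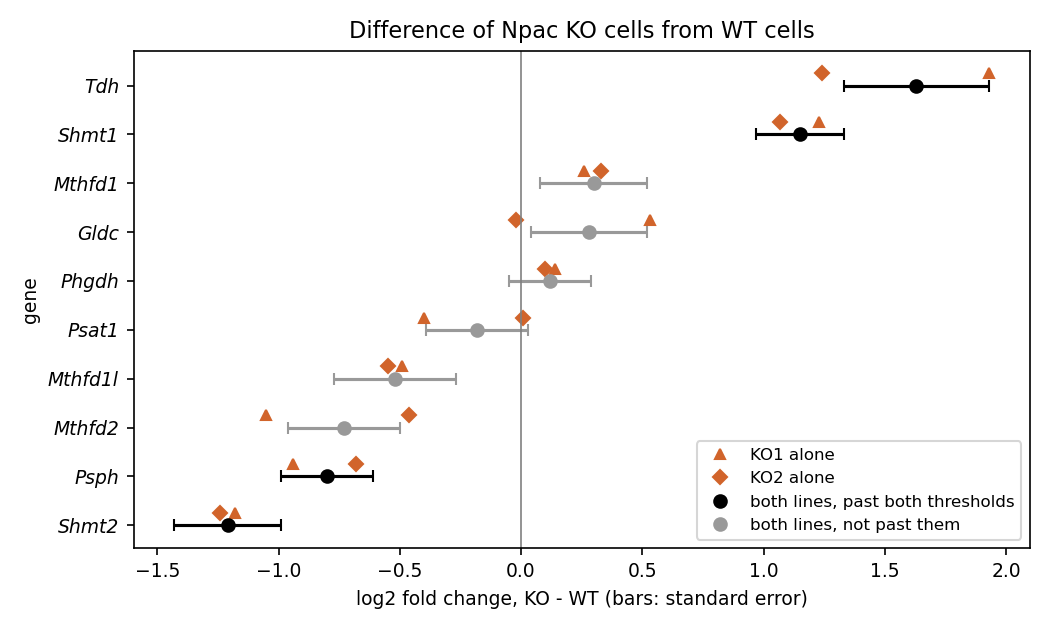
Log2 fold change (KO - WT) of each of the 10 genes. Circles with bars are the fit over both KO lines with its standard error (black, past both thresholds; grey, not past them), and triangles and diamonds are KO1 and KO2 alone against the WT libraries. Shmt2 and Psph are the called genes on the left, and Shmt1 and Tdh are those on the right.

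In serine synthesis, the transcript of the last enzyme fell and those of the first 2 were not called. Psph (ENSMUSG00000029446), the phosphatase that releases serine, had 89.0 CPM in WT1, 87.3 CPM in WT2, 46.0 CPM in KO1 and 55.2 CPM in KO2. The WT libraries were almost equal, and both KO libraries were clearly below them. Psph fell from 88.2 ± 1.21 to 50.6 ± 6.49 CPM (log2 fold change -0.80, standard error 0.19, adjusted p = 0.0221 from edgeR). The call was lost without KO1 (adjusted p = 0.271) and without KO2 (adjusted p = 0.124), where a single KO library is assumed to vary like the WT pair. Psph shares 452 bases with Cct6a on the opposite strand, and no source used here states whether reads were counted by strand. Cct6a had 7847 and 9816 reads in WT cells and 12131 and 11834 reads in Npac KO cells (log2 fold change 0.44, adjusted p = 0.125 from edgeR); its part in the Psph count was not tested.

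Phgdh (ENSMUSG00000053398), which commits the glycolytic intermediate to serine, had 208 CPM in WT1, 211 CPM in WT2, 230 CPM in KO1 and 224 CPM in KO2. Replicates were close in both genotypes, and the KO values were only slightly higher (log2 fold change 0.12, standard error 0.17, adjusted p = 0.655 from edgeR). By sequence, 16 processed pseudogenes match Phgdh, and together they had 66 to 83 reads per library. Psat1 (ENSMUSG00000024640), the aminotransferase, had 439 CPM in WT1, 492 CPM in WT2, 353 CPM in KO1 and 470 CPM in KO2. KO2 lay between the WT libraries and KO1 below them, and the gene was not called (log2 fold change -0.18, standard error 0.21, adjusted p = 0.572 from edgeR).

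Tdh (ENSMUSG00000021953), the threonine dehydrogenase, had the largest log2 fold change of the 10 genes with all libraries in the fit. Without WT2 that of Shmt2 was larger in size (-1.46, and 1.34 for Tdh). Tdh had 111 CPM in WT1, 70.7 CPM in WT2, 347 CPM in KO1 and 215 CPM in KO2. Both genotypes were spread, but the lower KO library was still well above the higher WT library. Tdh rose from 90.9 ± 28.5 to 281 ± 93.0 CPM, a 3.09-fold change (log2 fold change 1.63, standard error 0.30, adjusted p = 0.0106 from edgeR). The line KO1 alone had a log2 fold change of 1.93 and KO2 alone of 1.24. The call was kept when any 1 library was left out, with log2 fold changes between 1.24 and 1.96. The lncRNA Gm17232 lies opposite Tdh and had 12 to 50 reads per library, far fewer than the 1236 to 5391 reads of Tdh.

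Gldc (ENSMUSG00000024827) had 281 CPM in WT1, 210 CPM in WT2, 354 CPM in KO1 and 243 CPM in KO2. The genotypes overlapped, and the gene was not called (log2 fold change 0.28, standard error 0.24, adjusted p = 0.444 from edgeR). KO1 alone had a log2 fold change of 0.53 and KO2 alone of -0.02.

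The order of the 10 transcripts per length changed between genotypes. In WT cells Shmt2 had the highest FPKM (146 ± 38.4), followed by Psat1 (109 ± 8.70) and Phgdh (83.5 ± 0.646; SD, n = 2 for each), and the libraries of these 3 genes did not overlap. Tdh was the seventh by FPKM in WT cells (34.5 ± 10.8), with values that overlapped those of Gldc just above it. In Npac KO cells Tdh had the highest mean FPKM (107 ± 36.3), but its libraries overlapped those of Psat1 (95.6 ± 18.2), and those of Psat1 overlapped those of Phgdh (90.4 ± 2.82). Shmt2 was the fifth in Npac KO cells (63.2 ± 2.50 FPKM), below Mthfd1 and with no overlap. Psph was the lowest of the 10 in both genotypes, with 20.2 ± 0.303 FPKM in WT cells and 11.6 ± 1.37 FPKM in Npac KO cells. In WT cells Shmt1, Mthfd1l and Psph, the 3 lowest, each overlapped their neighbour in this order.

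**Figure D3:**
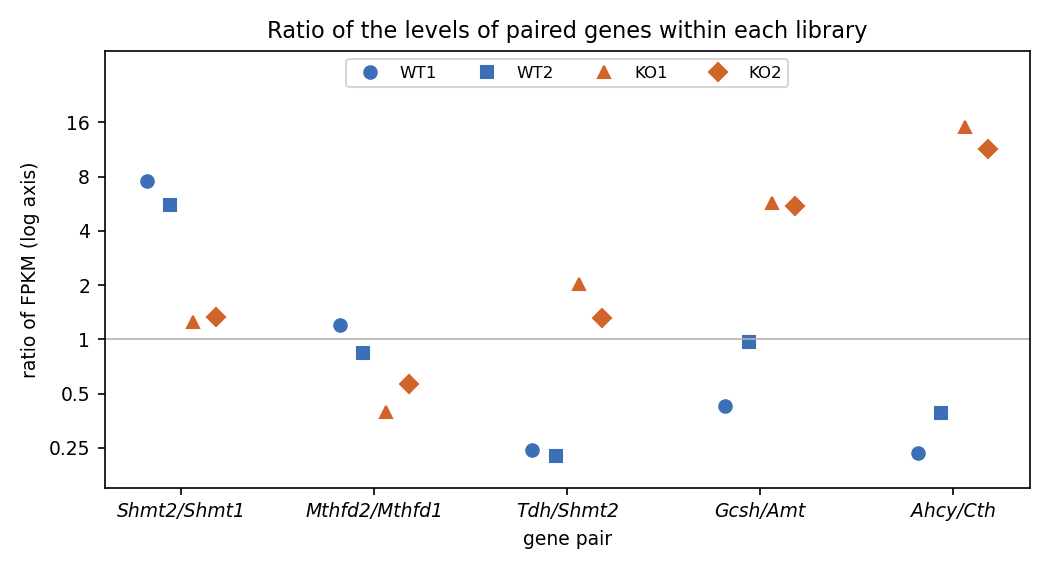
Ratio of the FPKM of paired genes within each library (log axis), with 1 point a library. Shmt2/Shmt1 drops from 5.58 or more in the WT libraries to 1.33 or less in the KO libraries, and the KO points of Tdh/Shmt2, Gcsh/Amt and Ahcy/Cth lie above their WT points.

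In the deposited tables Shmt2 lies on chromosome 10 from 127352992 to 127358313, Shmt1 on chromosome 11 from 60678930 to 60702544, Psph on chromosome 5 from 129842622 to 129864513 and Tdh on chromosome 14 from 63729796 to 63746541, all on the minus strand. The submitters' processing notes name build mm10. Only 2.83% of the gene identifiers shared with GENCODE M21, an annotation of that build, had the same start and end, so these 4 positions are given as deposited and without a build.

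The other genes of the pathway were taken from lists that were chosen with earlier results of these data known. Their counts are given as a description, without a test. Of all tested genes, 11.0% were called higher and 10.7% lower. Of 19 folate enzymes and transporters tested, 2 rose and 3 fell. With each library left out in turn, 1 to 3 of them were called higher and 2 to 4 lower, and 4 were called higher with the chromosome medians removed. Under limma-trend on log2(FPKM + 0.1) without a filter, 1 was called higher and 0 lower (4 lower at an unadjusted p under 0.05, and 4 in DESeq2). Aldh1l2, the mitochondrial 10-formyltetrahydrofolate dehydrogenase, had 52.7 and 25.5 CPM in WT1 and WT2 and 1.35 and 4.10 CPM in KO1 and KO2 (log2 fold change -3.82, standard error 0.55, adjusted p = 0.0048 from edgeR). Its log2 fold change lay between -4.83 and -3.23 with each library left out in turn, and it was not called under limma-trend on log2(FPKM + 0.1) without a filter (adjusted p = 0.0526). The cytosolic Aldh1l1, named after its values were seen, was just past the threshold (log2 fold change -0.82, adjusted p = 0.0495 from edgeR). It was called in 4 of 10 other settings and in 1 of 4 fits with a library left out. Gart, an enzyme of purine synthesis that takes a one-carbon unit from folate, rose from 209 and 213 CPM to 584 and 459 CPM (log2 fold change 1.31, standard error 0.20, adjusted p = 0.00554 from edgeR). Ftcd, a folate enzyme of histidine breakdown, was called higher on 5 and 16 reads in WT cells and 43 and 58 reads in Npac KO cells, and lost the call without KO1 and without KO2. The median log2 fold change of this list was -0.04.

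The transcripts of the 4 proteins of the glycine cleavage system did not move together. Gldc was not called, as given above, and Dld, the shared lipoamide dehydrogenase, was not called either (log2 fold change 0.22, adjusted p = 0.4 from edgeR). Amt, the aminomethyltransferase that hands the one-carbon unit to folate, fell from 149 and 109 CPM in WT1 and WT2 to 53.5 and 50.7 CPM in KO1 and KO2 (log2 fold change -1.31, standard error 0.21, adjusted p = 0.00659 from edgeR). Gcsh, the lipoyl carrier protein, rose from 41.3 and 68.3 CPM to 197 and 180 CPM (log2 fold change 1.78, standard error 0.26, adjusted p = 0.00487 from edgeR). Gcsh lies on chromosome 8, and with the chromosome medians removed its log2 fold change was 1.27 (adjusted p = 0.0157 from edgeR). Per length, the FPKM of Gcsh was 0.428 and 0.964 times that of Amt in WT1 and WT2, and 5.69 and 5.49 times in KO1 and KO2. Gcat, which completes the breakdown of threonine after Tdh, had 7.27 and 7.33 CPM in WT cells and 14.3 and 13.1 CPM in Npac KO cells and was not called (adjusted p = 0.0591 from edgeR). Of the 10 genes tested in this list of glycine cleavage and of serine, glycine and threonine breakdown, which does not include Gldc and Tdh, Gcsh rose and Amt fell, and the median log2 fold change was 0.66. The number called higher in this list was 2 without WT1 or without KO1, 4 without WT2, 2 in DESeq2 and 3 without the filter on low counts.

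In the methionine cycle and transsulfuration, 5 of 12 tested genes rose and 1 fell, with a median log2 fold change of 0.59. Ahcy, which hydrolyses S-adenosylhomocysteine, rose from 77.9 and 80.5 CPM in WT1 and WT2 to 472 and 409 CPM in KO1 and KO2 (log2 fold change 2.48, standard error 0.19, adjusted p = 0.000526 from edgeR). The processed pseudogene Gm9826, 99.2% identical to Ahcy, had 13, 22, 264 and 181 reads in the same order, and the log2 fold change of the summed counts was 2.50. Cth, the transsulfuration enzyme that makes cysteine, fell from 331 and 206 CPM to 31.3 and 35.6 CPM (log2 fold change -3.00, standard error 0.27, adjusted p = 0.000896 from edgeR). Mat2b, a subunit of the S-adenosylmethionine synthetase, rose (log2 fold change 1.23, adjusted p = 0.00602 from edgeR), and its log2 fold change was 0.74 with the median of its chromosome 11 removed. Bhmt was called higher on 3 and 2 reads in WT cells and 19 and 34 reads in Npac KO cells, a ratio of 10.6 with a 95% exact binomial interval of 4.25 to 33.9 that covers counting error only. Mtap and Amd1, named after their values were seen, rose by log2 fold changes of 1.16 and 0.95. Of the 5 genes that rose, Amd1 lost the call without KO1 and without KO2, and Bhmt without KO2. The number called higher in this list was 3 without KO2 and 8 without WT2.

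None of 16 carriers of small neutral amino acids was called higher in edgeR (0 at an unadjusted p under 0.05, and 0 in DESeq2), and 5 fell, with a median log2 fold change of -0.37. The number that fell was 3 under limma-trend on log2(FPKM + 1). Under limma-trend on log2(FPKM + 0.1) without a filter it was 0 (7 at an unadjusted p under 0.05). This number also changed with the libraries used. It was 1 without KO1, 0 without KO2 (6 at an unadjusted p under 0.05 in edgeR) and 8 without WT2, and 1 carrier was called higher without WT1 or without WT2. Slc38a1 had a log2 fold change of -1.38 and Slc3a2, the heavy chain of amino acid exchangers, of -0.91 (adjusted p = 0.0193 and 0.0139 from edgeR). Sfxn3 and Slc25a38, carriers of the mitochondrial inner membrane, each fell with a log2 fold change of -0.95. Slc7a5, named after its values were seen, had a log2 fold change of -0.76, and of -1.27 with the median of its chromosome 8 removed. Slc3a2, Sfxn3, Slc25a38 and Slc7a5 lost the call without KO1 and without KO2, and Slc38a1 without KO2. Sfxn1, the mitochondrial serine carrier, had 76.5 and 74.7 CPM in WT1 and WT2 and 70.3 and 78.5 CPM in KO1 and KO2 and was not called (adjusted p = 0.942 from edgeR).

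**Figure D4:**
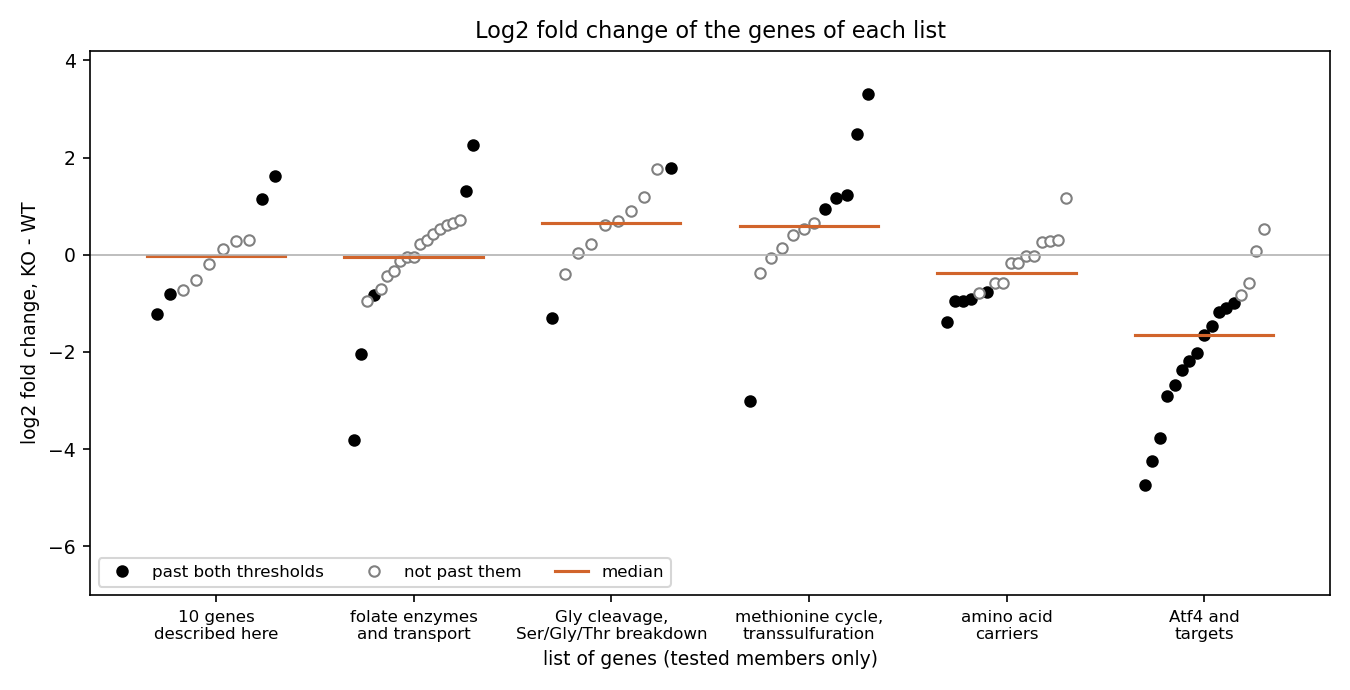
Log2 fold change (KO - WT) of the tested genes of each list, 1 circle a gene, filled where the gene passed both thresholds, with the median as a line. The 10 genes described here and the folate list spread on both sides of 0 with medians of -0.03 and -0.04, and the list of Atf4 and its targets has a median of -1.66.

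Atf4 had 581 CPM in WT1, 412 CPM in WT2, 195 CPM in KO1 and 242 CPM in KO2. It fell, and the genotypes did not overlap (log2 fold change -1.18, standard error 0.23, adjusted p = 0.0125 from edgeR). Of the 17 genes in the list of Atf4 and its targets outside this pathway, 13 fell, and 0 were called higher in edgeR (1 at an unadjusted p under 0.05, and 0 in DESeq2). The median log2 fold change was -1.66. With each library left out in turn, 10 to 15 of the 17 genes were called lower, 1 was called higher without WT2, and Atf4 lost the call without KO1. Under limma-trend on log2(FPKM + 0.1) without a filter, 3 of them were called lower, and Atf4 was not (adjusted p = 0.069). Chac1, a glutathione-degrading enzyme, had 234 and 136 CPM in WT1 and WT2 and 1.80 and 17.5 CPM in KO1 and KO2 (log2 fold change -4.25, adjusted p = 0.0121 from edgeR). Slc7a11, the cystine carrier, was read 130 and 56 times in WT cells and 1 and 6 times in Npac KO cells. The transcription factor gene Atf5 fell with a log2 fold change of -3.77 and the pseudokinase gene Trib3 with one of -2.91 (adjusted p = 0.00133 and 0.00453 from edgeR). These genes were lower in KO1 than in KO2, and their size moved with the line left out. The log2 fold change of Chac1 was -6.66 without KO2 and -3.41 without KO1, that of Atf5 -4.48 and -3.31, and that of Trib3 -3.58 and -2.46. Asns, which makes asparagine, had 678 and 621 CPM in WT cells and 426 and 448 CPM in Npac KO cells and was not called (adjusted p = 0.0572 from edgeR).

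Promoter windows of both sets of genes were searched for TGATGNAA on either strand, a core of the element bound by Atf4 with C/EBP factors. It was found in 3.97% of all 32851 windows, for 7 of the 16 genes of the Atf4 list with a window and for 0 of the 9 members with one. At the share over all windows, fewer than 1 of 9 genes would hold it. The absence says only that these letters are not in those windows, and Tdh, without a window, was not searched. Stretches of 40 bases around the match are shown for Asns (chr6:7693209-7693248, minus strand), Chac1 (chr2:119351033-119351072, plus strand) and Atf3 (chr1:191183420-191183459, minus strand), as examples of the element in the Atf4 list. They are read in the direction of the gene in GRCm38.p6, with the match in capitals.
Asns: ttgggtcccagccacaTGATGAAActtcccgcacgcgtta
Chac1: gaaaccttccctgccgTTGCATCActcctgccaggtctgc
Atf3: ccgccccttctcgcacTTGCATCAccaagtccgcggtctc
Asns has the motif as written, and Chac1 and Atf3 have its reverse complement.

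Markers of other cell types were read beside these results. The summed level of 7 ES cell markers was 6930 CPM in WT1, 5610 CPM in WT2, 4680 CPM in KO1 and 4490 CPM in KO2, so it was lower in both KO libraries. Dppa5a, the most abundant of them, went the other way, with 1280 and 1240 CPM in WT cells and 1510 and 1520 CPM in Npac KO cells (not called), while 5 of the other 6 markers had both KO libraries below both WT libraries. Of all tested genes, 32.5% had both KO libraries below both WT libraries and 33.2% had them above. The 7 primitive endoderm markers summed to 31.8, 32.5, 20.4 and 27.7 CPM in the same order (Sox7 called lower among 6 tested genes). Sox7 had the highest mean of them in WT cells (13.6 CPM, Gata4 7.98), and Gata4 in Npac KO cells (11.2 CPM, Sox7 0.591). Sox7 fell from 17.9 and 9.27 CPM to 0.257 and 0.924 CPM, while Gata4, Gata6 and Pdgfra, not called, had both KO libraries above both WT libraries (log2 fold changes 0.48, 0.94 and 0.77). Dab2, not called, had them below (log2 fold change -0.71), Sox17 overlapped (-0.18), and Foxa2 had 0 to 2 reads. The 6 trophoblast markers summed to 87.8, 83.0, 219 and 191 CPM. Tfap2c had the highest mean in both genotypes, though Krt8 was above it in WT2 (38.6 and 31.7 CPM). Tfap2c was the 1 gene of 4 tested that was called (higher), while Cdx2, at 0 reads in WT1 and KO1, and Elf5 were too low to be tested. The 5 neural progenitor markers summed to 42.6, 40.8, 43.1 and 49.8 CPM (Neurod1 called higher and Sox1 lower among 4 tested genes). Here the highest mean was that of Sox1 in WT cells (20.6 CPM, Nes 18.6) and that of Nes in Npac KO cells (36 CPM, Sox1 4.05). The 6 fibroblast markers summed to 35.8, 59.1, 45.0 and 50.7 CPM (Thy1 the most abundant, and Col1a1 called higher among 3 tested genes), while Col3a1 and Dcn had 0 reads in every library. The 7 markers of 2-cell-like cells summed to 24.2, 60.3, 2.51 and 15.2 CPM (Tcstv3 and Zfp352 called lower among 7 tested genes, and 5 lower in DESeq2). Zscan4d had the highest mean of these in WT cells (10.8 CPM, Zscan4c 8.8), and Zscan4c in Npac KO cells (2.15 CPM, Zscan4d 1.78). The part of all these markers in the values of the 10 genes was not tested.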

How the data were processed

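RNA-seq of E14 cells gave 4 libraries, 2 of WT cells and 1 of each Npac KO line. The submitters' processing notes name HISAT2 2.0.5, featureCounts 1.5.0-p3 and mm10, and the study's methods name another HISAT release. The authors deposited raw read counts per gene and FPKM values. The deposited FPKM equal the counts divided by gene length and by 1 constant a library, which follows the DESeq2 size factors (1.0746 in both WT2 and KO2). Whether strand was used in counting is not given in the sources used here.

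Counts were fitted in R 4.3.3 with edgeR 4.0.16 (TMM, filterByExpr, quasi-likelihood test, WT against KO), with DESeq2 1.42.0 and limma 3.58.1 as alternatives. The common biological coefficient of variation was 0.235, and the test was checked on simulated counts. Each KO line alone was fitted in a design of 3 groups, for values only. Processed pseudogenes were matched with blastn 2.17.0+ to GENCODE M21 transcripts (90% identity over 60% of their length). Promoter windows are from RefSeq (GRCm38.p6). The 10 genes, the 5 pathway lists and the 6 marker lists were chosen with earlier results of these data known. Named genes are the 10 genes, Glyr1, Atf4 and, in each pathway list, the called genes with the largest change, at most 4. Other genes named, among them Dld, Gcat, Sfxn1, Asns and the marker genes, were chosen after their values were seen. A gene of the folate list that was tested is not reported by name here.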

Additional observations from a re-analysis of the deposited data

Results flagged for a closer look

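In 3 genes of the pathway lists the KO lines lay on opposite sides of both WT libraries. The share of all tested genes that did so was not counted, and this difference between the lines was not tested. Mtr, the methionine synthase, had a log2 fold change of -0.25 in KO1 and 0.14 in KO2. Slc19a1, a folate carrier, had -0.16 in KO1 and 0.06 in KO2. Sfxn1, the mitochondrial serine carrier, had -0.10 in KO1 and 0.05 in KO2. None of the 10 genes described above did so.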

How the results depend on the processing

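Shmt1 was called higher under all other settings run, and Tdh under all except limma-trend on log2(FPKM + 0.1) without a filter, where Tdh (adjusted p = 0.0735), Shmt2 and Psph (adjusted p = 0.063 and 0.0671) were not called. In that setting 1 of the 10 genes was called higher and 0 lower (3 lower at an unadjusted p under 0.05; DESeq2 called 3), among 609 higher and 548 lower of all genes. With a replicate block, all genes called numbered 3128 higher and 2994 lower, and Mthfd2 was called (adjusted p = 0.00964); the block changed no other call of the 10 genes, and with it 4 folate genes were called higher and 4 lower, and 3 genes of the glycine list higher. Replicate numbers are not stated to mark a shared batch, and same-numbered libraries correlated at 0.332 in their deviations from the genotype means. All genes called were 1223 higher and 1144 lower with log2(FPKM + 0.1), and 1220 higher and 1087 lower with log2(FPKM + 1). With each library left out in turn, 2 to 3 of the 10 genes were called higher and 0 to 4 lower (at 0, without KO2, 3 were lower at an unadjusted p under 0.05), and all genes called were 826 to 3571 higher and 821 to 3384 lower. The log2 fold change of Psat1 lay between -0.38 without KO2 and 0.0037 without KO1, and that of Gldc between 0.54 without KO2 and -0.024 without KO1, so both changed sign without KO1. Without WT2, Mthfd1 (0.60) was called higher and Mthfd1l (-0.83) lower. Sums with processed pseudogenes, chosen after the data were seen, changed no call of the 10 genes. Depth limits Bhmt, Ftcd and Slc7a11, which had 19 reads or fewer in at least 1 library.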
